A study of Mus musculus with 9 samples.

Results

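The Fc gamma receptors are the receptors through which macrophages bind the constant part of IgG antibodies. The 5 genes of the family described here are the activating receptors Fcgr1, Fcgr3 and Fcgr4, the inhibitory receptor Fcgr2b, and Fcer1g, the common gamma chain through which the activating receptors signal. They were taken by gene symbol, and each had exactly 1 probe set with a single symbol, so that 5 of the 22180 genes tested are members. The cells were microglia, which are brain-resident macrophages, obtained by FACS from the brains of female mice of strain C57Bl/6 and measured on 9 one-colour arrays, 3 for each of 3 genotypes. The surface markers used for the sort are not named in the labels. Wild type mice were compared with FAD mice (genotype FAD Hdac1/2fl/fl) and with FAD DKO mice (genotype FAD Hdac1/2fl/fl Cx3cr1CreERT2). FAD mice carry transgenes of familial Alzheimer's disease together with floxed Hdac1 and Hdac2, 2 genes of class I histone deacetylases, and have no Cre. FAD DKO mice carry in addition Cx3cr1CreERT2, a tamoxifen-inducible Cre driven from the fractalkine receptor gene, which is active in microglia and in other cells that express Cx3cr1. The mice were aged 24 to 28 weeks, and each genotype, controls included, had been injected with tamoxifen (8 mg) when 6 weeks old. The wild type label names no floxed allele, so FAD and wild type differ in the transgenes and may differ in the floxed alleles too. FAD DKO and FAD differ in the Cre allele as well as in the deletion. Nothing in the labels says whether a group's arrays represent different animals, and the p-values therefore cover only the spread between samples, some of which may be technical.

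An activating Fc gamma receptor that is clustered by IgG passes the signal to the ITAM of the common gamma chain, a tyrosine motif that Src family kinases phosphorylate and to which the kinase Syk binds. The inhibitory receptor Fcgr2b carries an ITIM instead, which recruits the lipid phosphatase encoded by Inpp5d, and co-engagement of both kinds sets the threshold for phagocytosis and cytokine release. In microglia these receptors are known for the uptake of antibody-coated material, including amyloid bound by antibodies, and their transcription in macrophages is known to depend on the ETS factor PU.1 and, for the activating receptors, to respond to interferons.

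The promoters of 3 members are shown because their windows differ in the motifs that such factors are known to bind: Fcgr1 and Fcgr4, which were highest in the array with the highest interferon genes, and Fcgr2b, which stood apart in the FAD DKO arrays. Fcgr3 was also highest in the array with the highest interferon genes, but its windows held neither interferon motif named below and are not printed. Of 5 members, 5 matched a window of 250 bases before the gene start in RefSeq (build GRCm38.p6), and the last 120 bases before the start are printed, 5′ to 3′ on the gene's strand. Capitals mark matches to GAGGAA (the core of a PU.1 box), to TTCNNNGAA (the gamma-activated site, GAS) or to AANNGAAA (the core bound by interferon regulatory factors), searched on both strands. The printed bases are chr3:96293970-96294089 on the minus strand for Fcgr1, chr1:171018806-171018925 on the plus strand for Fcgr4 and chr1:170976072-170976191 on the minus strand for Fcgr2b.
Fcgr1: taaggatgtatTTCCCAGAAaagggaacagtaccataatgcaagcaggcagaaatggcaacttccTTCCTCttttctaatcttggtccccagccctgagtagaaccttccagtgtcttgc
Fcgr4: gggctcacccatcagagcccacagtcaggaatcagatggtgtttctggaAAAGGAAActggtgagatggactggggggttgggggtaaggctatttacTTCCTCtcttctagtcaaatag
Fcgr2b: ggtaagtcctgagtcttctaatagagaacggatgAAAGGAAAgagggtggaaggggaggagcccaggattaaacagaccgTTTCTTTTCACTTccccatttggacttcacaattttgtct

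The Fcgr1 window held a TTCNNNGAA match 109 to 101 bases before the start, a motif present in 7.02% of 32851 windows of 250 bases. The Fcgr4 window held an AANNGAAA match 71 to 64 bases before the start (21.3% of windows hold 1 or more) and a full GAGGAAGT on the other strand 24 to 17 bases before it (2.44% of windows). The Fcgr2b window held AANNGAAA at 86 to 79 bases and, on the other strand, in overlapping matches at 40 to 33 and 35 to 28 bases before the start. GAGGAAGT contains GAGGAA, so that place in Fcgr4 counts for both, with capitals on GAGGAA alone. GAGGAA was found in the windows of 3 members, Fcgr1, Fcgr3 and Fcgr4, against 23.3% of all windows. TATAAA (12.4% of windows) stood in no member's window of 250 bases, and the Fcer1g window held none of the 5 motifs searched. A match describes the sequence and is no evidence of binding, and the arrays hold no measurement of binding.

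The arrays were even in scale, with medians between 5.346 and 5.398 on the deposited log2 scale. Microglia markers were high in all groups: the mean over 9 of 10 listed markers lay between 10.92 and 11.09 in every array, with the ADP receptor gene P2ry12 at 11.90 to 12.16. All 9 lay below 0 in FAD against wild type (median -0.09), and 3 had groups apart. In FAD DKO against wild type 8 of 9 lay below 0 (median -0.13), and 5 had groups apart. Of all genes, 47.9% and 51.3% lay above 0 in these comparisons, and 5.46% and 6.15% lay apart below wild type. Fcgr1, Fcgr3 and Fcgr4 were at -0.13, -0.10 and -0.45 in the first and at -0.06, -0.08 and -0.57 in the second. The other members did not share this, with Fcer1g at 0.07 and 0.06 and Fcgr2b at -0.01 and 0.27. The part of these markers in the receptor values was not tested. Cx3cr1, whose locus carries the Cre, stood at 12.20, 12.12 and 11.88 and was lower in each FAD DKO array than in all others (-0.25 against FAD, adjusted p = 0.383 in limma; -0.33 against wild type, adjusted p = 0.133). Hdac1 stood at 8.44, 8.12 and 7.56 and Hdac2 at 8.29, 8.48 and 7.80 in wild type, FAD and FAD DKO, and each FAD DKO array lay below every other array for both, although it is not known whether the probes cover the deleted exons. In limma Hdac1 in FAD DKO differed from FAD by -0.56 (adjusted p = 0.376) and from wild type by -0.88 (adjusted p = 0.0702). Hdac2 differed by -0.68 (adjusted p = 0.159) and -0.49 (adjusted p = 0.128), so neither gene was called. In bulk RNA of this kind, fewer cells of a type and less RNA per cell cannot be told apart.

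No member of the family passed the test in any comparison. In limma, with Benjamini-Hochberg adjustment over all 22180 genes and a threshold of 0.05, 0 of 5 members were called in FAD against wild type (9 genes or 0.0406% of all genes called), 0 of 5 in FAD DKO against FAD (5 genes, 0.0225%) and 0 of 5 in FAD DKO against wild type (31 genes, 0.14%). At an unadjusted p under 0.05 the counts were 0, 1 and 2 of 5 members, against 8.43%, 8.1% and 8.14% of all genes. By array, Fcgr1, Fcgr3 and Fcer1g ranged over 0.25, 0.35 and 0.16 on the log2 scale, less than the median gene (0.45). Fcgr2b ranged over 0.44, with the 3 FAD DKO arrays at the top, and Fcgr4 over 1.24.

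**Figure D1:**
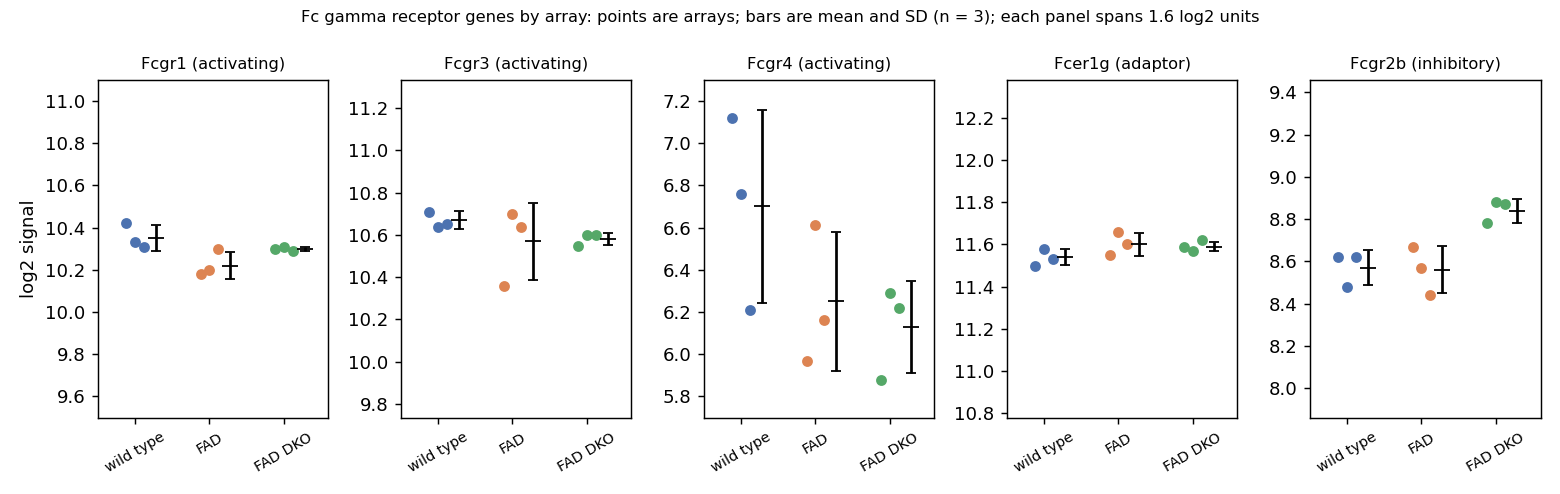
Log2 signal of the 5 genes (vertical axis, each panel spanning the same height of 1.6 log2 units) in the 9 arrays by genotype (horizontal axis); points are arrays and bars the mean and SD of 3. Fcgr1, Fcgr3 and Fcer1g range over at most 0.35 in all 9 arrays, the 3 FAD DKO arrays of Fcgr2b lie above the other 6, and Fcgr4 ranges over 1.24.

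Fcgr1 encodes the high-affinity IgG receptor and stood at 10.42, 10.33 and 10.31 in the wild type arrays. It was at 10.18, 10.20 and 10.30 in FAD and at 10.30, 10.31 and 10.29 in FAD DKO. The FAD and FAD DKO arrays all lay at or under the lowest wild type array to 2 decimals, and FAD and FAD DKO overlapped. The group means were 10.35 ± 0.0621, 10.22 ± 0.0638 and 10.30 ± 0.00973 (SD, n = 3). The difference of FAD from wild type was -0.13 on the log2 scale (SE 0.0649, adjusted p = 0.644 in limma), which is 0.913-fold with a 95% interval of 0.825 to 1.01. FAD DKO differed from FAD by 0.08 (interval -0.07 to 0.22, adjusted p = 0.764) and from wild type by -0.06 (-0.20 to 0.09, adjusted p = 0.878).

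Fcgr3 encodes a low-affinity activating receptor for IgG immune complexes. The wild type arrays gave 10.71, 10.64 and 10.65, the FAD arrays 10.36, 10.70 and 10.64, and the FAD DKO arrays 10.55, 10.60 and 10.60. FAD replicate 1 was the lowest of the 9 arrays and the other 2 FAD arrays lay among the wild type ones, while the FAD DKO arrays lay just under every wild type array. The changes were -0.10 in FAD against wild type (SE 0.0911, adjusted p = 0.809 in limma), 0.01 in FAD DKO against FAD (adjusted p = 0.977) and -0.08 in FAD DKO against wild type (adjusted p = 0.865). Without FAD replicate 1 the first of these was 0.01 and the second -0.09. The 95% interval of FAD DKO against FAD ran from 0.875-fold to 1.16-fold. Fcgr3 and Fcgr2b are known to be closely related in the sequence of their extracellular parts, and how far their probe sets could share signal was not tested.

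Fcer1g, the gamma chain that carries the ITAM for Fcgr1, Fcgr3 and Fcgr4, had the smallest spread of the 5 members. The wild type arrays read 11.50, 11.58 and 11.53, the FAD arrays 11.55, 11.66 and 11.60, and the FAD DKO arrays 11.59, 11.57 and 11.62. All 3 groups overlapped, with an SD over the 9 arrays of 0.0466 where the median gene had 0.14. The differences were 0.07 (SE 0.0613), -0.01 and 0.06 in the 3 comparisons, with adjusted p of 0.811, 0.974 and 0.871 in limma. Over the 3 comparisons the lowest bound of its 95% intervals was 0.902-fold and the highest 1.15-fold.

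Fcgr4 encodes the receptor that binds mainly the IgG subclasses 2a and 2b. Wild type arrays stood at 7.12, 6.76 and 6.21, FAD arrays at 5.97, 6.61 and 6.16, and FAD DKO arrays at 5.88, 6.29 and 6.22. Wild type replicates 1 and 2 were the highest of the 9 arrays, and wild type replicate 3 lay inside the range of both other groups, so no pair of groups was separate. The means were 6.70 ± 0.457, 6.25 ± 0.329 and 6.13 ± 0.218 (SD, n = 3). The difference from wild type was -0.45 in FAD (SE 0.239, adjusted p = 0.667 in limma) and -0.57 in FAD DKO (adjusted p = 0.586), the second being 0.676-fold with an interval of 0.464 to 0.983. Both sizes were uncommon among all genes: 98.0% of genes had a smaller absolute change in FAD and 98.8% in FAD DKO, but the SD among the wild type arrays, 0.457, was of the same size. FAD DKO and FAD differed by -0.12 (adjusted p = 0.912). Without wild type replicate 1 the differences from wild type were -0.24 in FAD and -0.35 in FAD DKO, and without wild type replicate 3 they were -0.69 and -0.81.

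Fcgr2b, the inhibitory member, stood at 8.62, 8.48 and 8.62 in wild type and at 8.67, 8.57 and 8.44 in FAD. In FAD DKO it was at 8.78, 8.88 and 8.87. Each FAD DKO array lay above all 6 other arrays, and wild type and FAD overlapped. The means were 8.57 ± 0.0824, 8.56 ± 0.112 and 8.84 ± 0.0568 (SD, n = 3). FAD DKO differed from FAD by 0.28 (SE 0.0797, unadjusted p = 0.00604, adjusted p = 0.385 in limma), which is 1.22-fold with an interval of 1.07 to 1.38. It differed from wild type by 0.27 (SE 0.0797, unadjusted p = 0.00794, adjusted p = 0.37 in limma), which is 1.21-fold (1.06 to 1.37). FAD and wild type differed by -0.01 (0.99-fold, 0.874 to 1.12, adjusted p = 0.977). By p-value Fcgr2b had rank 348 of 22180 genes in FAD DKO against FAD, and groups that lay apart with FAD DKO higher were found for 5.38% of all genes in that comparison and 5.77% against wild type, so 1 of 5 members apart in this direction is a small count. Over the 17 alternative analyses its adjusted p lay between 0.173 and 0.603 against FAD and between 0.153 and 0.658 against wild type, and its change between 0.22 and 0.34.

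**Figure D2:**
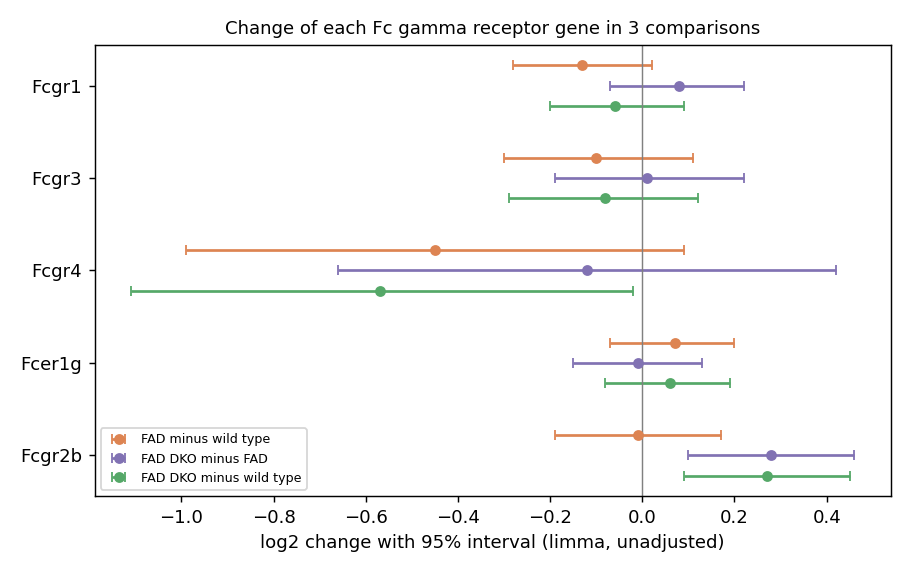
Log2 change of each gene (horizontal axis) with its 95% interval from limma, not adjusted for the number of genes, in FAD against wild type, FAD DKO against FAD and FAD DKO against wild type (colours). The intervals of Fcgr2b against FAD and against wild type lie above 0 (0.10 to 0.46 and 0.09 to 0.45), that of Fcgr4 in FAD DKO against wild type ends at -0.02, and all others include 0.

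In FAD against wild type, 4 of 5 members lay below 0 (Fcgr1, Fcgr3, Fcgr4 and, by -0.01, Fcgr2b), and Fcgr1 was the 1 of 5 members whose groups lay apart (lower in FAD, as for 5.46% of all genes; 0 lay apart above, 6.37% of genes). In FAD DKO against FAD 0 members lay apart below (6.5% of genes) and Fcgr2b alone above. In FAD DKO against wild type, 2 members lay apart below wild type, Fcgr1 and Fcgr3 (6.15% of all genes), and 1 above it, Fcgr2b (5.77%). The median change of the 5 members was -0.10, 0.01 and -0.06 in FAD against wild type, FAD DKO against FAD and FAD DKO against wild type, where the medians of all genes were -0.01, 0.01 and 0.00. These comparisons share arrays, so their values are not independent of each other.

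The balance of activating to inhibitory receptors was read within each array, as the log2 signal of an activating gene or of Fcer1g less that of Fcgr2b. A change in this difference shows unequal change, whereas its level compares different probe sets and means nothing by itself. For Fcgr1 the difference was 1.80, 1.85 and 1.69 over the wild type arrays, 1.51, 1.63 and 1.85 over FAD, and 1.53, 1.43 and 1.42 over FAD DKO. For Fcgr3 it was 2.09, 2.16 and 2.03 over the wild type arrays, 1.70, 2.14 and 2.20 over FAD, and 1.77, 1.72 and 1.73 over FAD DKO. In both, all FAD DKO arrays lay below all wild type arrays, and the FAD arrays spanned both groups.

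FAD DKO less wild type, this difference was -0.33 ± 0.0597 for Fcgr1, -0.36 ± 0.0424 for Fcgr3, -0.84 ± 0.289 for Fcgr4 and -0.22 ± 0.0759 for Fcer1g (log2, SE, n = 3 and 3). The groups did not overlap in any of the 4, each with an exact permutation p of 0.1 (two-sided), the smallest that 3 against 3 arrays can give, and an adjusted p of 0.24 over 12 differences. All 4 share the Fcgr2b values, and 54.0% of all genes set against Fcgr2b in the same way lay lower without overlap. By itself Fcgr2b was at 0.27 in this comparison, beside -0.06 for Fcgr1, -0.08 for Fcgr3, -0.57 for Fcgr4 and 0.06 for Fcer1g. FAD DKO less FAD, the within-array difference was -0.21 for Fcgr1, -0.27 for Fcgr3, -0.40 for Fcgr4 and -0.29 for Fcer1g, and the groups lay apart for Fcer1g alone (exact permutation p = 0.1, adjusted p = 0.24; 51.8% of all genes). Single arrays moved these values: Fcgr1 was at -0.11 without FAD replicate 3, Fcgr3 at -0.43 without FAD replicate 1 and -0.18 without FAD replicate 3, and Fcgr4 at -0.22 without FAD replicate 2. In FAD against wild type, 0 of 4 differences lay apart (2.58% of genes lower and 5.06% higher), with exact permutation p from 0.3 to 0.9.

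**Figure D3:**
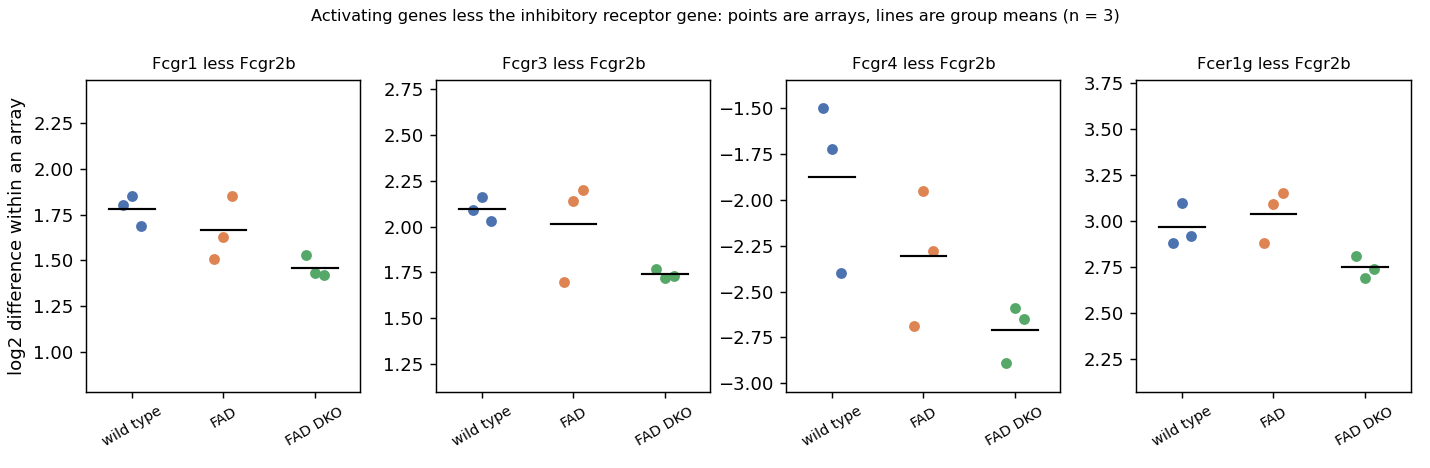
Log2 signal of Fcgr1, Fcgr3, Fcgr4 and Fcer1g less that of Fcgr2b in the same array (vertical axis) by genotype (horizontal axis); points are arrays and lines the means of 3. The FAD DKO arrays lie below the wild type arrays in all 4 panels, for example at 1.72 to 1.77 against 2.03 to 2.16 for Fcgr3. All 4 panels share the Fcgr2b values, and 54.0% of all genes set against Fcgr2b in this way lay lower without overlap.

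Interferon response genes were set beside the receptors array by array. The mean of 14 measured interferon response genes (of 17 listed), centred on the 9 arrays, was 0.59, 0.29 and 0.03 in the wild type arrays, and Fcgr4 was at 7.12, 6.76 and 6.21 and Fcgr1 at 10.42, 10.33 and 10.31 in the same arrays. In FAD the list stood at -0.32, -0.12 and -0.05 and in FAD DKO at -0.12, -0.18 and -0.12. The wild type array with the highest list mean was thus the highest of 9 for Fcgr1, Fcgr4 and also Fcgr3 (10.71), and FAD replicate 1, with the lowest list mean, was the lowest for Fcgr1 and Fcgr3. The order did not hold throughout. In FAD DKO, replicate 2 had the lowest list mean (-0.18) and the highest Fcgr4 (6.29), and in FAD, replicate 3 had the highest list mean (-0.05) with Fcgr4 at 6.16, under replicate 2 at 6.61. The list of plaque-associated genes followed the order of Fcgr4 within wild type (centred -0.70, -0.87 and -1.04) and within FAD (-0.0043, 0.69 and 0.26), but not within FAD DKO (0.50, 0.46 and 0.70). All 14 interferon genes lay below 0 in FAD against wild type (median -0.38) and in FAD DKO against wild type (median -0.50). In limma 1 was called in the first and 0 in the second, where 0.0406% and 0.14% of all genes were. At an unadjusted p under 0.05 there were 6 in each, against 8.43% and 8.14% of all genes. The part of the interferon genes in the Fcgr4 and Fcgr1 values was not tested.

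**Figure D4:**
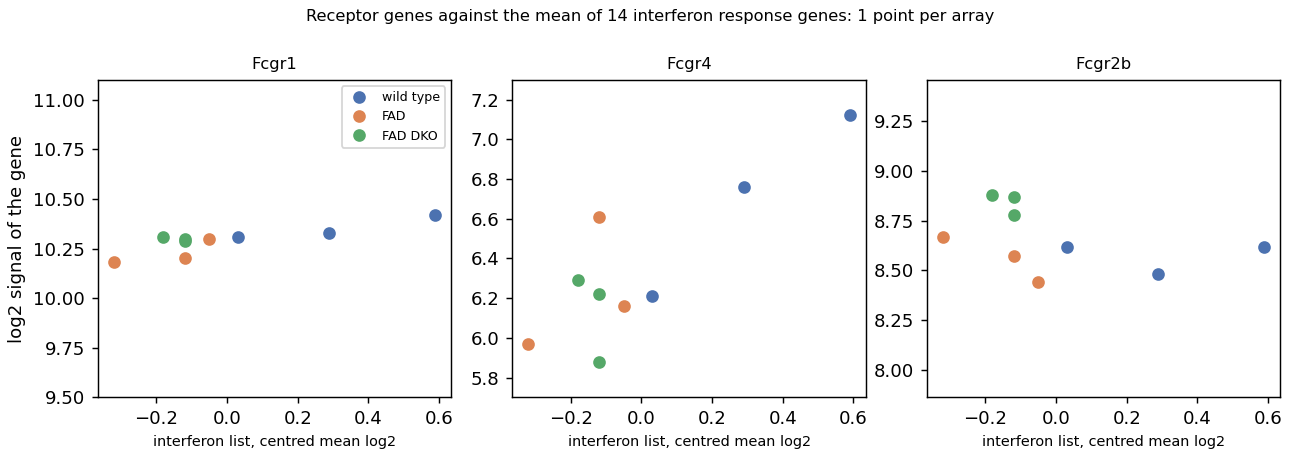
Log2 signal of Fcgr1, Fcgr4 and Fcgr2b (vertical axes of equal height) against the centred mean log2 signal of 14 interferon response genes (horizontal axis), 1 point per array, coloured by genotype. The wild type array at 0.59 on the horizontal axis is the highest for Fcgr1 (10.42) and Fcgr4 (7.12), while Fcgr2b is highest in FAD DKO arrays between -0.18 and -0.12.

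Other cells that could have entered the sort also carry these receptors. Examples are B cells (Fcgr2b), NK cells (Fcgr3 and Fcer1g), mast cells (Fcer1g, Fcgr2b and Fcgr3), and monocytes and neutrophils (Fcgr3, Fcgr4 and Fcer1g). The members named for each cell type are not all that it may carry. The B cell list (7 of 8 measured) had means of 5.63 to 5.79 for wild type, 5.56 to 5.60 for FAD and 5.65 to 5.78 for FAD DKO. Of the 7 genes, 5 lay under the median of all probe sets, 5.354, among them Ms4a1 (3.14 in FAD and in FAD DKO) and Cd79a (4.79 and 4.87). The other 2 lay above it: Ighm at 10.21, 10.22 and 10.18 and Cd79b at 7.21, 6.79 and 7.06 in wild type, FAD and FAD DKO. Against FAD, 6 of 7 B cell genes were above 0 in FAD DKO, where Fcgr2b was at 0.28, but against wild type 5 of 7 were below 0, where Fcgr2b was at 0.27. The list of mast cells and basophils (8 of 8 measured, all under the median of probe sets) ranged from 3.29 to 3.50 in wild type, from 3.29 to 3.36 in FAD and from 3.37 to 3.43 in FAD DKO, with Cpa3 at 3.17, 3.11 and 3.28. Against FAD, 6 of the 8 mast cell genes were above 0 in FAD DKO (median 0.06), and against wild type 4 of 8. Against FAD 1 of them, Fcer1a, was at an unadjusted p under 0.05, where 8.1% of all genes were. The list of NK and T cells (11 measured) lay between 4.30 and 4.46 in all arrays. In FAD DKO against FAD 8 of its 11 genes lay above 0 (median 0.09), where 53.2% of all genes did. In FAD against wild type 5 lay above and 6 below 0, and in FAD DKO against wild type 6 and 5.

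The list of monocytes and neutrophils was the most uneven, with means of 6.29 to 6.74 for wild type, 6.76 to 6.89 for FAD and 5.93 to 7.27 for FAD DKO. Its alarmin S100a8 ran from 8.63 to 11.39 within FAD DKO, and its wild type range was 9.41 to 10.67. FAD DKO replicate 1 had the lowest mean (centred -0.76) and the lowest Fcgr4 of the group (5.88), and replicate 2 the highest mean (0.58) and the highest Fcgr4 (6.29). Wild type replicate 1, however, had the highest Fcgr4 of all 9 arrays with a list mean of -0.40. Fcgr2b followed the order of the list within FAD DKO (8.78, 8.88 and 8.87 beside -0.76, 0.58 and 0.05). It did not in wild type (8.62, 8.48 and 8.62 beside -0.40, 0.05 and 0.02) or FAD (8.67, 8.57 and 8.44 beside 0.16, 0.20 and 0.08). Of 12 list genes 10 lay below 0 in FAD DKO against FAD, where Fcgr2b was at 0.28. Against wild type 11 lay above 0 in FAD and 8 in FAD DKO, where Fcgr2b was at -0.01 and 0.27. The part of these cells in the receptor values was not tested. Border macrophage markers gave ranges of 5.10 to 5.29, 5.03 to 5.28 and 4.97 to 5.25 in wild type, FAD and FAD DKO.

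The plaque-associated genes of microglia set the family in context. Of 15 measured members of that list, 15 lay above 0 in FAD against wild type (median 1.10; 1 called, 12 at an unadjusted p under 0.05, where 8.43% of all genes were) and 15 in FAD DKO against wild type (median 1.42; 6 called). Of all genes, 0.0406% and 0.14% were called in these comparisons. Of the Fc gamma receptor genes, 1 of 5 lay above 0 in the first and 2 of 5 in the second. The list was chosen with earlier results of these arrays known and is no independent evidence of its direction.

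Beyond the 5 genes, 73 of 78 genes on 4 lists of the pathway were measured. The lists were other Fc receptors, partners of the gamma chain or of other ITAM adaptors, activating signalling, and inhibitory signalling. In limma 0 of the 73 were called in any comparison. Counts of list genes at an unadjusted p under 0.05 are to be read against 8.43%, 8.1% and 8.14% of all genes in FAD against wild type, FAD DKO against FAD and FAD DKO against wild type. Lyn, a Src family kinase known to act on the ITAM, had no probe set with a single symbol and is not analysed here.

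Of 14 other Fc receptors and Fc receptor-like genes, 10 had a mean under the median of probe sets. In FAD against wild type 5 lay above and 9 below 0 (median -0.05; 0 at an unadjusted p under 0.05), in FAD DKO against FAD 7 and 7 (median -0.0025; 2), and in FAD DKO against wild type 5 and 9 (median -0.04; 5). Fcrls, an Fc receptor-like gene known for its expression in microglia, was at 11.38, 11.33 and 11.34 in the wild type arrays, 11.14, 11.25 and 11.13 in the FAD arrays, and 11.18, 11.11 and 10.29 in the FAD DKO arrays. FAD DKO replicate 3 was also far below the other arrays for Fcrl1, at 5.36 where the other 8 lay between 7.32 and 8.26. Fcrl1 differed by -1.35 in FAD DKO against wild type (SE 0.456, adjusted p = 0.454 in limma) and Fcrls by -0.49 (adjusted p = 0.565). Without that array the values were -0.68 (adjusted p = 0.146) and -0.21 (adjusted p = 0.586). Both genes lie on chromosome 3, with 3 listed genes between them, and what sets this array apart for both was not tested. Fcrl6 had the smallest p of the list in both FAD DKO comparisons, at 0.43 against FAD (SE 0.12, adjusted p = 0.385 in limma) and 0.43 against wild type (adjusted p = 0.335), with a mean of 4.86 in FAD DKO that lay under the median of probe sets. Fcer1a, the IgE-binding chain of the mast cell receptor, had a mean of 2.22 to 2.51 in the 3 groups, with 0.28 in FAD DKO against wild type (adjusted p = 0.398). Pigr, the transporter of polymeric immunoglobulin across epithelia, was at 0.20 there (adjusted p = 0.536).

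The list of receptors that pair with the gamma chain or with other ITAM adaptors also holds adaptor genes. Of its 14 genes 12 were measured. In FAD against wild type 9 lay above 0 (median 0.11; 1 at an unadjusted p under 0.05), in FAD DKO against FAD 7 (0.04; 1) and in FAD DKO against wild type 6 (0.03; 1). Clec7a, the beta-glucan receptor dectin-1, which signals through its own ITAM-like motif and is also on the plaque-associated list, gave 7.09, 6.80 and 6.46 for wild type, 7.09, 8.74 and 7.82 for FAD, and 8.11, 8.81 and 8.44 for FAD DKO. All FAD DKO arrays lay above all wild type arrays, and the difference of 1.67 had an adjusted p of 0.181 in limma. Tyrobp, the other ITAM adaptor of microglia, differed by 0.04, 0.06 and 0.10 in the 3 comparisons (SE 0.0643), where Fcer1g was at 0.07, -0.01 and 0.06, and its FAD DKO arrays lay above all wild type arrays. Pirb, an inhibitory receptor placed on this list beside its activating relatives, was at 8.39, 8.88 and 8.56 in FAD and at 7.63, 7.44 and 8.54 in FAD DKO, a difference of -0.74 (SE 0.253, adjusted p = 0.504 in limma).

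In the list of ITAM kinases and activating signalling, 28 of 30 genes were measured. In FAD against wild type 9 lay above and 19 below 0 (median -0.04; 5 at an unadjusted p under 0.05), in FAD DKO against FAD 10 and 18 (-0.06; 2), and in FAD DKO against wild type 6 and 22 (-0.08; 8, of which 6 were lower). Vav2, a guanine nucleotide exchange factor that acts in phagocytosis, gave 8.36, 8.13 and 7.95 for wild type, 7.74, 7.81 and 7.84 for FAD, and 7.56, 7.52 and 7.44 for FAD DKO. The 3 groups lay apart from each other in that order. FAD DKO differed from wild type by -0.64 (SE 0.102, adjusted p = 0.0681 in limma), FAD from wild type by -0.35 (adjusted p = 0.446) and FAD DKO from FAD by -0.29 (adjusted p = 0.518). The first was called with a low-signal filter (adjusted p = 0.0197), a trended and robust variance model (0.0188) or array weights (0.0351), and in none of the 9 fits that left out an array (0.0849 to 0.222).

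Plcg2, the phospholipase that turns the ITAM signal into calcium release, gave 8.52, 8.57 and 8.48 for wild type, 8.44, 8.55 and 8.44 for FAD, and 8.27, 8.27 and 8.37 for FAD DKO. Its FAD DKO arrays lay below all others, with differences of -0.18 from FAD (SE 0.0665, adjusted p = 0.546 in limma) and -0.22 from wild type (adjusted p = 0.375). Syk, given for its role as the kinase that binds the gamma chain, differed by -0.08, 0.08 and 0.01 in the 3 comparisons (SE 0.0715). Among the lowest p-values of this list in FAD against wild type were those of the kinase genes Tec (0.30, adjusted p = 0.438) and Fgr (0.53, adjusted p = 0.535), and of Prkcd, a protein kinase C gene (-0.22, adjusted p = 0.513). In FAD DKO against wild type Pik3r1, a regulatory subunit of PI3 kinase, was at -0.19 (adjusted p = 0.45) and the PI3 kinase adaptor Pik3ap1 at -0.23 (adjusted p = 0.502).

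Of 20 genes of ITIM and inhibitory signalling 19 were measured. In FAD against wild type 9 lay above and 10 below 0 (median -0.0021; 5 at an unadjusted p under 0.05), in FAD DKO against FAD 10 and 9 (median 0.00011; 1), and in FAD DKO against wild type 8 and 11 (-0.02; 2). Lilrb4a, an inhibitory receptor of myeloid cells, gave 9.10, 9.14 and 8.82 for wild type, 9.76, 10.32 and 9.71 for FAD, and 9.47, 9.56 and 9.63 for FAD DKO. Its groups lay apart in all 3 comparisons, with FAD highest and wild type lowest, in differences of 0.91 for FAD against wild type (SE 0.159, adjusted p = 0.141 in limma), -0.37 for FAD DKO against FAD (adjusted p = 0.605) and 0.54 for FAD DKO against wild type (adjusted p = 0.375). Inpp5d, the phosphatase gene that acts downstream of Fcgr2b, differed by -0.13, 0.02 and -0.11 (SE 0.0707) with adjusted p of 0.674, 0.957 and 0.752. Pecam1, an adhesion receptor with ITIMs, had the smallest p of the list in FAD DKO against wild type, at -0.45 (SE 0.108, adjusted p = 0.219 in limma), with all FAD DKO arrays below all wild type arrays, and was at -0.27 in FAD against wild type (adjusted p = 0.574). The adaptor gene Dok3 was at -0.38 in FAD against wild type (adjusted p = 0.493) and Siglecg, a sialic acid-binding inhibitory receptor, at -0.22 (adjusted p = 0.508).

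On the chromosome, 4 of the 5 members lie on chromosome 1 in the order Fcgr2b, Fcgr4, Fcgr3 and Fcer1g, and Fcgr1 lies on chromosome 3, per the RefSeq table of GRCm38.p6. The 6 other measured genes from Fcgr2b to Fcer1g were Cfap126, Sdhc, Pcp4l1, Nr1i3, Tomm40l and Apoa2, and 0 of the 6 were called in any comparison. In FAD DKO against FAD their changes were -0.23, -0.12, 0.29, -0.14, -0.10 and 0.11, where Fcgr2b was at 0.28. Pcp4l1 and Apoa2 thus had the direction of Fcgr2b, and the others did not. All 6 lie between Fcgr3 and Fcer1g, and genes on the other side of Fcgr2b are not given. Whether the change of Fcgr2b was shared along the chromosome was not tested. Fcgr4, the next member to Fcgr2b on the chromosome, was at -0.12.

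Genes with the most similar pattern over the 9 arrays were taken by Pearson correlation among 10084 genes at or above the median level, which is a search in which high values arise in number. For Fcgr2b they were Upk1b (r = 0.959), Igsf8 (0.923) and Cry1 (0.92), which differed by 0.48, 0.36 and 0.39 in FAD DKO against FAD. For Fcgr4 they were Ino80e (0.94), Slc35d2 (0.938) and Slc9a3r1 (0.935). For Fcgr1 they were Cdkn1b (0.982), Zfp691 (0.979) and Desi1 (0.975), for Fcgr3 Plekhf2 (0.979), Klk8 (0.976) and Plxdc1 (0.95), and for Fcer1g Nsmce3 (0.943), Spcs2 (0.939) and Ormdl2 (0.926). In 0 of the 15 places was the similar gene another member of the family.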

How the data were processed

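Per the submitters' processing notes the authors used RMA, which corrects background, quantile normalizes and summarises probes, and deposited 1 log2 value per probe set and array. For RMA, a version, annotation or level of summary is not given in the sources used here. No filter on detection was applied in the main test. Amplified total RNA was biotin-labelled, per the labels. Of 41345 probe sets, the name table gave 1 symbol for 23521 and several for 1814, and left 16010 without an entry. Identifiers matched RefSeq for 23328 of those with 1 symbol. The brightest probe set stood for each of 22180 genes.

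limma 3.58.1 in R 4.3.3 was fitted to all 9 arrays with a mean per group (lmFit and eBayes, 6 residual degrees of freedom, 8.98 after moderation), two-sided, with Benjamini-Hochberg adjustment over all genes and a threshold of 0.05. It was tested on simulated data with 200 changed genes. Over the 3 comparisons it recovered 50.7% to 61.7% of 1.5-fold changes and 88.1% to 89.6% of 2-fold changes. Of its calls, 5.12% to 6.37% were false, and changes under 1.5-fold were not simulated. Within-array differences were tested by exact permutation (scipy 1.17.1). Figures used Python 3.11.15 and matplotlib 3.10.9. The smallest SD of the difference between 2 arrays was 0.335, so no array copied another. The median SE over genes was 0.104. The number of arrays limits the precision.

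The members, gene lists, alternatives and tests were chosen with earlier results of these data known. Named genes were the members, Hdac1, Hdac2 and Cx3cr1, the 3 genes most alike each member and, from each pathway list, up to 4 genes with the smallest p in a comparison, of which those at an unadjusted p under 0.05 are given; others were named for their role or after their values were seen. Promoter motifs were also chosen after the values were seen: a longer interferon response motif was searched first and matched the Fcgr4 window alone, and its shorter core was then used in its place, which also matched Fcgr2b. Marker lists of dendritic cells, neurons, astrocytes, oligodendrocyte lineage and vascular cells were also measured, and their list means lay at 5.85 or lower in every array.

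Alternatives were a low-signal filter (mean at or above 5.354), a trended, robust variance model, array weights, a further quantile normalization, the mean of probe sets, all probe sets tested, only the 2 groups compared, a replicate block, and each array left out in turn.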

Additional observations from a re-analysis of the deposited data

How the results depend on the processing

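No member of the family was called in any of 255 alternative values (15 differences under 17 alternatives), where the lowest adjusted p in limma was 0.153. Small differences changed sign: in FAD against wild type Fcgr2b was at 0.01 with array weights, 0.01 without wild type replicate 1 or 3 and 0.04 without FAD replicate 3, and Fcgr3 at 0.01 without FAD replicate 1 (leave-one-out ranges -0.07 to 0.04 and -0.17 to 0.01). In FAD DKO against FAD, Fcgr3 was at -0.00064 with array weights and -0.09 without FAD replicate 1, Fcgr4 at 0.06 without FAD replicate 2 and 0.01 without FAD DKO replicate 1, and Fcer1g at 0.02 without FAD replicate 2 (ranges -0.09 to 0.08, -0.26 to 0.06 and -0.04 to 0.02). In FAD DKO against wild type Fcer1g was at -0.0014 with quantile normalization. The 4 within-array differences from Fcgr2b moved by less than the larger of the SDs of the groups compared, but Fcgr3 less Fcgr2b in FAD against wild type turned from -0.08 to 0.07 without FAD replicate 1.

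The number of genes called depended on the setting, and the cause was not tested. For FAD against wild type it was 33 with a low-signal filter, 43 with a trended and robust variance, 22 with array weights and 5 with the 2 groups alone. For FAD DKO against FAD it was 11, 12 and 0 with the filter, the variance model and the 2 groups, and 3 with quantile normalization. For FAD DKO against wild type it was 117, 124, 82 and 13 with the filter, the variance model, array weights and the 2 groups, and 14 with every probe set tested. Leaving out 1 array gave 8 to 12 calls in the first comparison, 0 to 5 in the second (0 without FAD replicate 2 or FAD DKO replicate 3) and 2 to 28 in the third (2 without wild type replicate 2 or FAD DKO replicate 3). The second count moved by over 1.5 times without any array other than wild type replicate 1, FAD replicate 3 and FAD DKO replicate 1, and the third without any array other than FAD replicates 1 and 2.

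The replicate number as a block gave 8 calls in the first comparison, 2 in the second and 11 in the third, and 0 of them were members. Same-numbered arrays did not deviate together over all genes (correlations from -0.11 to 0.122). These correlations cannot show a link that touches few genes, and what the replicate number stands for is not known here.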
